A study of Mus musculus with 20 samples.

Results

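Prostaglandin genes were examined in RNA-seq of mice with and without crystal nephropathy, with and without alkali therapy. The 10 genes were taken from a fixed list of names: the cyclooxygenases Ptgs1 and Ptgs2, the terminal synthases Ptges, Ptgds and Ptgis, the breakdown enzyme Hpgd, and the prostaglandin E2 receptors Ptger1, Ptger2, Ptger3 and Ptger4. They are 10 of the 25700 genes in the count tables, and all 10 were found. The list goes by name and function, not by a threshold on these values. It was chosen with earlier results of these data known, so the counts of members called below are descriptions.

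Prostaglandins are made when a cyclooxygenase converts arachidonic acid, released from membranes by phospholipase A enzymes, into an unstable intermediate that terminal synthases turn into prostaglandin E2, prostaglandin D2, prostacyclin and others. They act close to where they are made, through G protein-coupled receptors, and are cleared by uptake and by oxidation through the Hpgd enzyme. In the kidney they are known for their part in medullary blood flow, salt and water excretion and renin release, and the collecting duct, the medullary interstitium and the macula densa are classical sites of their synthesis.

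The 20 libraries form 4 groups of 5: oxalate mice given alkali therapy (labelled Oxalate late, treatment Alkali therapy), oxalate mice left untreated, control mice given alkali therapy (labelled Control late), and control mice left untreated. The series' design text names bicarbonate as the alkali and crystal nephropathy as the model. The labels used here give no tissue, strain, age, sex, dose or duration, and do not say what "late" means or how the oxalate was given. Both alkali-treated groups carry the label late and neither untreated group does. A difference between alkali-treated and untreated mice therefore cannot be told apart from a difference in whatever "late" stands for. Libraries are named below by the number in their title, and nothing in the labels says whether each is a separate animal, so p-values measure the spread between libraries.

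Library totals ran between 25547840 and 39550689 counts. Kidney markers were present in every library: the summed counts per 1000000 (CPM) of 8 proximal tubule genes ran between 7802 and 17668 in alkali-treated oxalate mice, 5118 and 13620 in untreated oxalate mice, 18640 and 19846 in alkali-treated controls, and 17792 and 20316 in untreated controls. No 2 libraries of a group differed by as little as counting noise. Adipoq, a fat cell gene, was above 1 CPM in 6 libraries: alkali-treated oxalate 33, untreated oxalate 32, alkali-treated controls 1 and 4, and untreated controls 26 and 9. Calls of the members that change without these 6 libraries are given both ways. The calls of the other pathway genes and of the cell type markers were not examined without these 6 libraries.

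The promoters of the members that differed most between groups are shown first, as RefSeq sequence of GRCm38.p6, 5′ to 3′ on the gene's own strand, from 250 bases before to 50 bases after the annotated start. Ptgds and Ptger4 are printed because they moved furthest among the members other than the scarce Ptger2. Ptges is printed as the most abundant synthase among the members. Ptgs2 is printed because its difference between alkali-treated and untreated oxalate mice was at the threshold. Capitals mark matches to the motifs described below. The windows are chr2:25469700-25469999 (minus strand) for Ptgds, chr2:30903248-30903547 (minus strand) for Ptges, chr1:150099781-150100080 (plus strand) for Ptgs2 and chr15:5244138-5244437 (minus strand) for Ptger4. For Ptges and Ptgds the RefSeq start lies inside the gene as annotated for the counts, which begins at 30929863 and 25470046 on the minus strand. Their windows are therefore not at the outermost start of the counted gene.
Ptgds promoter: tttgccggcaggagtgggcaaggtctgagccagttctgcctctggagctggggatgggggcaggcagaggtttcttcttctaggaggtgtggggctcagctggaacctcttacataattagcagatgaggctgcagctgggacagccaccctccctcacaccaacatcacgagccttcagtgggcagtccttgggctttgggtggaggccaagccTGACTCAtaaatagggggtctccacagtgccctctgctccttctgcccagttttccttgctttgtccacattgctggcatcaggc
Ptges promoter: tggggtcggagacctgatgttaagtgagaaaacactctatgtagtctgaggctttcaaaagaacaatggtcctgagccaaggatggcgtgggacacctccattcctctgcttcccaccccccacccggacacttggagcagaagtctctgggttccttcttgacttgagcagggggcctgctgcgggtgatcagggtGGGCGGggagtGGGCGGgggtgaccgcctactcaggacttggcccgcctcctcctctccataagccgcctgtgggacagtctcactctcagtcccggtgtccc
Ptgs2 promoter: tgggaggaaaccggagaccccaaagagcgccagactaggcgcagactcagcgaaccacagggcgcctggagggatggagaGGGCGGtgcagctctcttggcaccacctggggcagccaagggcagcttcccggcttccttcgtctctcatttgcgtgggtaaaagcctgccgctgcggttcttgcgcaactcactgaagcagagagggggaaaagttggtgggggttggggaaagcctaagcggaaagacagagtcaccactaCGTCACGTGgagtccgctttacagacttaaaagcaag
Ptger4 promoter: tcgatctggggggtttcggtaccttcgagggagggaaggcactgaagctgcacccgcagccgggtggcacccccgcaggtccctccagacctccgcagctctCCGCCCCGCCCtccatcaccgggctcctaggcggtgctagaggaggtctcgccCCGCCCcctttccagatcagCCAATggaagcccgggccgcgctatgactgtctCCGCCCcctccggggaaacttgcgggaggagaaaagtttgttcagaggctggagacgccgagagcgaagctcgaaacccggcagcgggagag

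Windows were available for 8 of the 10 members, and 8 motifs were searched on both strands by their letters. These were TATAAA (the TATA box), CGTCA (the core of the cyclic AMP response element), TGANTCA (AP-1), GGGANTTTC (a form of the NF-kB site), GGGCGG (the GC box), CCAAT (the box of that name), CACGTG (an E-box) and GCGNGGGCG (EGR), where N is any base. Positions give the first base of a match, read on the printed strand, relative to the annotated start. Ptgds held TGACTCA at -35, an AP-1 match, which 7.81% of 32851 promoter windows of the same length hold. Ptges held GGGCGG at -53 and -42. Ptgs2 held GGGCGG at -170 and CGTCA at 14, whose last letters overlap a CACGTG match at 17. Ptger4 held the GC box on the opposite strand at -148, -143, -95 and -42, the first pair overlapping, and CCAAT at -75. The GC box was found in 5 of the 8 members, against 35.7% of all windows; CGTCA is held by 20.8%, CCAAT by 37.4% and CACGTG by 7.15% of windows. None of the 8 held the NF-kB letters (1.11% of all windows) or the EGR letters (5.55%). A match is a run of letters and not a measured binding site.

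Per length, Ptges was at the top of the members' levels in untreated controls with 6.95 ± 0.81 CPM per kb of exon (SD, n = 5). Hpgd followed with 6.74 ± 0.79, Ptgs1 with 5.99 ± 0.88 and Ptger3 with 5.58 ± 0.87 CPM per kb, and each neighbour in this order lay within the spread of the next. Ptger1 had 2.29 ± 0.73, Ptgds 1.74 ± 0.65 and Ptgis 1.20 ± 0.16 CPM per kb, neighbours whose spreads also overlapped. Ptger4 had 0.51 ± 0.10 CPM per kb, below all of these by more than the spread. Ptgs2 with 0.158 ± 0.068 and Ptger2 with 0.051 ± 0.018 CPM per kb were the lowest, Ptgs2 with between 12 and 33 reads and Ptger2 with between 4 and 11 reads per untreated control library. In untreated oxalate mice Ptgds, at 9.46 ± 2.05 CPM per kb, stood next to Ptges at 11.1 ± 1.26 in the order, and Ptger3 at 4.56 ± 0.52 came after Hpgd at 7.79 ± 1.93 and Ptgs1 at 7.67 ± 0.44. The length is the union of all annotated exons, so a gene with rarely used long exons reads low on this scale.

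**Figure D1:**
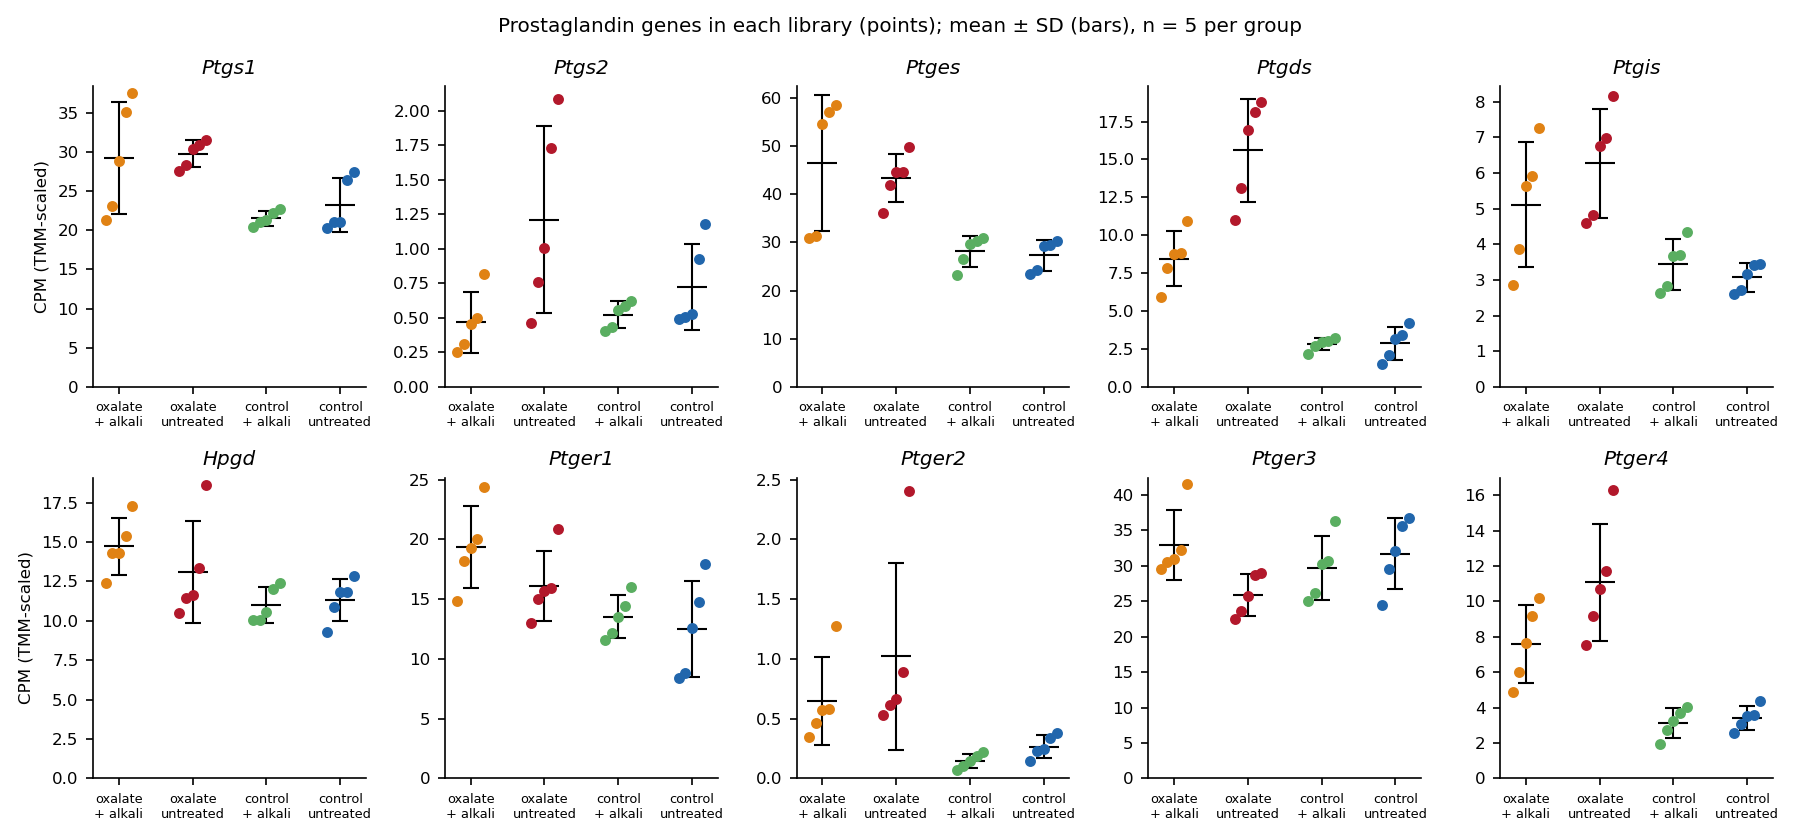
Level of each of the 10 genes in each of the 20 libraries, as CPM on a linear axis from 0, one panel per gene; points are libraries and bars are group means ± SD (n = 5). Ptgds lies between 11.0 and 18.8 CPM in untreated oxalate mice, above all alkali-treated oxalate libraries (5.92 to 10.9 CPM), which in turn lie above all control libraries.

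Oxalate without alkali was the first comparison, asking how the pathway's transcripts differed in untreated crystal nephropathy. Transcripts of the prostaglandin D2 synthase Ptgds, the receptors Ptger4 and Ptger2, the prostacyclin synthase Ptgis, the inducible prostaglandin E2 synthase Ptges and the constitutive cyclooxygenase Ptgs1 were higher in untreated oxalate than in untreated control mice, and none was called lower. The changes ran between 0.36 and 2.44 on the log2 scale. Of the 10 members, 6 passed at an adjusted p below 0.05 (edgeR quasi-likelihood test, Benjamini-Hochberg over 15430 genes) as higher and 0 as lower, where 26.4% of all genes tested were called higher and 23.1% lower. All 10 members passed the filter on low counts, but Ptger2 passed it only through the oxalate libraries (1 of 10 control libraries reached the 0.329 CPM needed) and so had to differ. Without it 5 of 9 were called higher, with a median log2 change of 0.67, against a median of all genes of about 0 under this scaling. Scaling by total counts moves the median of all genes by 0.30 here and by 0.21 on alkali, so small changes below are relative to the typical gene.

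In the same comparison 6 members, the same 6 that were called, had every untreated oxalate library above every untreated control library, where 18.5% of all genes did. Without Ptger2 this was 5 of 9. In bulk RNA a change in the share of a cell type and a change of RNA per cell cannot be told apart. Marker sets of several cell types moved in the same comparison. The summed CPM of 7 fibroblast genes was 467 to 1810 in untreated oxalate and 152 to 207 in untreated control libraries, with 7 of 7 higher. The summed CPM of 9 macrophage and monocyte genes was 683 to 2773 in untreated oxalate and 120 to 161 in untreated control libraries, with 9 of 9 higher. The summed CPM of 4 neutrophil genes was 4.66 to 15.9 in untreated oxalate and 0.466 to 2.85 in untreated control libraries, with 2 of the 3 tested higher. Of 5 podocyte markers 5 were higher, with sums of 433 to 583 CPM in untreated oxalate and 316 to 399 CPM in untreated control libraries. Of 8 proximal tubule markers 8 were lower, with a mean sum in untreated oxalate mice that was 0.515 of that in untreated controls. Their part in the changes of the members was not tested.

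Ptgs1 encodes the cyclooxygenase that most tissues express constitutively (ENSMUSG00000047250, GRCm38 chromosome 2, 36230426 to 36252272, plus strand). It had 27.6, 28.4, 30.4, 30.9 and 31.6 CPM in the untreated oxalate libraries, against 20.3, 21.01, 21.03, 26.4 and 27.5 CPM in untreated controls. The oxalate libraries sat in a narrow band just above the highest control, and untreated controls 26 and 9 were the nearest. Both carry fat cell transcripts, and control 26 also had a summed level of 5 medulla and thin limb markers of 477 CPM, against 204 to 243 CPM in the other untreated controls. The log2 change was 0.36 ± 0.13 (SE; n = 5 each; adjusted p = 0.0268, edgeR quasi-likelihood test). The call was lost without untreated control 13, 19 or 35 or untreated oxalate 3 or 40, with adjusted p between 0.0513 and 0.0846 (edgeR), and without any filter on low counts (0.0511). On alkali, Ptgs1 had 21.4, 23.1, 28.9, 35.1 and 37.6 CPM in oxalate libraries and 20.4, 21.1, 21.3, 22.2 and 22.8 CPM in controls. Alkali-treated oxalate 30 lay within the control range and 33 highest, and the log2 change was 0.44 ± 0.13 (edgeR adjusted p = 0.0126), or 0.30 with an edgeR adjusted p of 0.115 without the 6 libraries with fat cell transcripts.

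Ptgs2, the inducible cyclooxygenase, lies on chromosome 1 from 150100031 to 150108227 (plus strand, ENSMUSG00000032487). It was scarce, with between 9 and 75 reads per library. It had 0.466, 0.761, 1.01, 1.73 and 2.09 CPM in untreated oxalate libraries, against 0.490, 0.508, 0.527, 0.924 and 1.18 CPM in untreated controls. Untreated oxalate 12 and 3 were high and 32 was below every control, so the groups overlapped. The log2 difference of 0.73 ± 0.38 did not pass (edgeR adjusted p = 0.119), although it did when scaled by total counts (1.03, edgeR adjusted p = 0.0383) and without untreated oxalate 32 (0.89, edgeR adjusted p = 0.0422).

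Alkali-treated oxalate libraries had 0.252, 0.310, 0.458, 0.495 and 0.815 CPM of Ptgs2, with alkali-treated controls at 0.407, 0.436, 0.558, 0.586 and 0.625 CPM. Alkali-treated oxalate 5 and 8 were above the lowest untreated oxalate library, 32, and the other three were below all of that group. Between alkali-treated and untreated oxalate mice the log2 difference was -1.36 ± 0.39, 0.389-fold, with an adjusted p of 0.0506 (edgeR quasi-likelihood test, n = 5 each), just outside the threshold. DESeq2 called it (adjusted p = 0.0182), as did edgeR without the 6 libraries with fat cell transcripts (0.0376). It was also called without alkali-treated oxalate 5 (edgeR adjusted p = 0.0325), untreated oxalate 32 (0.0143) or 39 (0.0412), or untreated control 19 (0.0493). Between alkali-treated oxalate and alkali-treated control mice the log2 difference was -0.16 ± 0.41 (edgeR adjusted p = 0.775), and its sign turned with total-count scaling (0.07).

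As a share of cyclooxygenase transcripts per length, Ptgs2 made up 1.30% ± 0.39 in alkali-treated oxalate mice, 3.33% ± 1.91 in untreated oxalate mice, 2.03% ± 0.43 in alkali-treated controls and 2.60% ± 1.16 in untreated controls (SD, n = 5 each). Ptgs1 therefore made up nearly all of the transcript in each group. Macula densa cells are a known site of Ptgs2 in the kidney. Of 4 macula densa and juxtaglomerular markers, Pappa2 was higher (2.23 on the log2 scale) and Ren1 lower (-0.63) in untreated oxalate than untreated control mice. On alkali Pappa2 (1.07) and Akr1b7 (0.56) were higher in oxalate than control mice. Between alkali-treated and untreated oxalate mice Ren1 (0.81) was the 1 of the 4 called, as higher.

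Ptges encodes microsomal prostaglandin E synthase 1, the inducible enzyme that makes prostaglandin E2 (ENSMUSG00000050737, chromosome 2, 30889471 to 30929863, minus strand). It had 36.2, 41.9, 44.7, 44.7 and 49.8 CPM in untreated oxalate libraries, against 23.5, 24.2, 29.3, 29.4 and 30.2 CPM in untreated controls. The groups did not overlap, and the log2 change was 0.67 ± 0.16 (edgeR adjusted p = 0.00214, n = 5 each). On alkali it had 31.0, 31.3, 54.6, 57.1 and 58.6 CPM in oxalate libraries and 23.2, 26.4, 29.7, 30.4 and 30.9 CPM in controls. Alkali-treated oxalate 2 and 30 were barely above the controls while 5, 33 and 8 exceeded every untreated oxalate library. The log2 change on alkali was 0.72 ± 0.16 (edgeR adjusted p = 0.00257), or 0.55 with an adjusted p of 0.0645 without the 6 libraries with fat cell transcripts.

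Principal cells of the collecting duct are a known site of Ptges. The summed CPM of 8 principal cell markers was 601 to 1058 in alkali-treated oxalate, 572 to 806 in untreated oxalate, 552 to 697 in alkali-treated control and 499 to 656 in untreated control libraries. Alkali-treated oxalate 2 and 30, the lowest for Ptges, were also the lowest of their group for these markers, at 601 and 708 CPM. These libraries were also the lowest of their group for the fibroblast, macrophage, podocyte, endothelial and smooth muscle sums, so the order is not particular to principal cell markers. Of the 8, Scnn1b, Scnn1g and Hsd11b2 were higher and Aqp4 lower in both oxalate comparisons. Their part in the change of Ptges was not tested.

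Ptgds encodes lipocalin-type prostaglandin D synthase, which makes prostaglandin D2 and is also secreted as a carrier of small lipids (ENSMUSG00000015090, chromosome 2, 25466709 to 25470046, minus strand). It had 11.0, 13.1, 16.9, 18.1 and 18.8 CPM in untreated oxalate libraries, against 1.51, 2.11, 3.13, 3.39 and 4.21 CPM in untreated controls. Every untreated oxalate library was far above every control, and the log2 change was 2.44 ± 0.23, 5.44-fold (edgeR adjusted p = 4.5e-07, n = 5 each). Of the 15430 genes tested 96.1% moved by less.

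On alkali, Ptgds had 5.92, 7.83, 8.79, 8.85 and 10.9 CPM in oxalate libraries and 2.14, 2.72, 2.94, 3.04 and 3.23 CPM in controls. The groups again did not overlap, and the log2 change was 1.59 ± 0.23, 3.005-fold (edgeR adjusted p = 9.55e-05). Each alkali-treated oxalate library was also below each untreated oxalate library, although the highest of the treated, 33, and the lowest of the untreated, 32, nearly met. The log2 difference between them was -0.88 ± 0.22, 0.543-fold (edgeR adjusted p = 0.0267). That call was lost when only the oxalate groups were fitted (edgeR adjusted p = 0.0806) and without untreated oxalate 12, 3 or 40 or alkali-treated oxalate 2, 30 or 8 (0.0506 to 0.0809). The interaction of alkali with oxalate was -0.86 ± 0.32 on the log2 scale (edgeR adjusted p = 0.478).

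Ptgis, the prostacyclin synthase of vascular and stromal cells, lies on chromosome 2 from 167191805 to 167240604 (minus strand, ENSMUSG00000017969). It had 4.60, 4.83, 6.76, 6.99 and 8.16 CPM in untreated oxalate libraries, against 2.60, 2.71, 3.16, 3.43 and 3.46 CPM in untreated controls. All oxalate libraries were above all controls, with a log2 change of 1.03 ± 0.23 (edgeR adjusted p = 0.000994). On alkali it had 2.85, 3.86, 5.65, 5.93 and 7.27 CPM in oxalate libraries and 2.64, 2.82, 3.66, 3.68 and 4.36 CPM in controls. Alkali-treated oxalate 30 and 2 lay among the controls, and the log2 change of 0.58 ± 0.22 was just inside the threshold (edgeR adjusted p = 0.0456). The call was lost in 13 of 20 fits that left out 1 library (edgeR adjusted p 0.0505 to 0.156): each of alkali-treated oxalate 33, 5 and 8, untreated oxalate 12 and 3, alkali-treated controls 27, 37, 4 and 7, and untreated controls 13, 19, 35 and 9. It was also lost when only the alkali-treated groups were fitted (0.0809), without the 6 libraries with fat cell transcripts (0.66, edgeR adjusted p = 0.0992) and with no filter (0.54, 0.0684).

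Hpgd, which oxidises prostaglandins to inactive products, lies on chromosome 8 from 56294585 to 56321043 (plus strand, ENSMUSG00000031613). It had 10.5, 11.5, 11.63, 13.3 and 18.6 CPM in untreated oxalate libraries and 9.31, 10.9, 11.8, 11.9 and 12.9 CPM in untreated controls. Apart from untreated oxalate 40, which was high, most oxalate libraries lay within the control range, and the log2 difference of 0.21 ± 0.14 did not pass (edgeR adjusted p = 0.214), but 0.54 with total-count scaling did (0.0115). Without untreated oxalate 40 the difference was 0.0035 (edgeR adjusted p = 0.983). On alkali it had 12.4, 14.3, 14.3, 15.4 and 17.3 CPM in oxalate libraries and 10.03, 10.05, 10.6, 12.02 and 12.4 CPM in controls. Those groups met at alkali-treated oxalate 5 and control 4, and the log2 change was 0.42 ± 0.14 (edgeR adjusted p = 0.0215), or 0.48 with an adjusted p of 0.0542 without the 6 libraries with fat cell transcripts. The call was also lost without alkali-treated oxalate 30 or alkali-treated control 27 or 37 (edgeR adjusted p 0.0520 to 0.0578).

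Ptger4 encodes the EP4 receptor, which couples to the stimulatory G protein and raises cyclic AMP (ENSMUSG00000039942, chromosome 15, 5206661 to 5244187, minus strand). It had 7.54, 9.19, 10.7, 11.7 and 16.3 CPM in untreated oxalate libraries, against 2.56, 3.05, 3.50, 3.59 and 4.38 CPM in untreated controls. The lowest oxalate library was well above the highest control, and the log2 change was 1.70 ± 0.24, 3.24-fold (edgeR adjusted p = 1.29e-05, n = 5 each). On alkali it had 4.89, 5.98, 7.66, 9.15 and 10.2 CPM in oxalate libraries and 1.94, 2.75, 3.23, 3.68 and 4.03 CPM in controls. Every oxalate library was above every control there too, with a log2 change of 1.28 ± 0.24, 2.42-fold (edgeR adjusted p = 0.000626). Alkali-treated and untreated oxalate libraries overlapped, and their log2 difference of -0.55 ± 0.23 did not pass (edgeR adjusted p = 0.171).

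Ptger2, the gene of the EP2 receptor, which also raises cyclic AMP, lies on chromosome 14 from 44988195 to 45003820 (plus strand, ENSMUSG00000037759). It had 0.533, 0.611, 0.661, 0.891 and 2.40 CPM in untreated oxalate libraries, against 0.143, 0.226, 0.243, 0.339 and 0.376 CPM in untreated controls. The groups did not overlap, but untreated oxalate 40 was far above its group. The log2 change was 1.95 ± 0.46 (edgeR adjusted p = 0.00165), and 1.30 (edgeR adjusted p = 0.00985) without library 40. On alkali it had 0.344, 0.462, 0.574, 0.581 and 1.28 CPM in oxalate libraries and 0.0733, 0.104, 0.149, 0.188 and 0.218 CPM in controls, where the control values stand for 2 to 6 reads. Oxalate libraries were again above all controls, 33 by the widest margin, with a log2 change of 2.10 ± 0.50 (edgeR adjusted p = 0.00382). Ptger2 passed the filter on low counts only through the oxalate libraries, with 1 of 10 control libraries at the 0.329 CPM needed. It therefore had to differ, and the p-values of both comparisons are descriptions. Without the 6 libraries with fat cell transcripts, of which 33 is one, the log2 change was 1.68 and the edgeR adjusted p was 0.0576.

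Ptger3 encodes the EP3 receptor, which couples to the inhibitory G protein and lowers cyclic AMP (ENSMUSG00000040016, chromosome 3, 157566892 to 157645888, plus strand). It had 29.5, 30.5, 31.0, 32.2 and 41.5 CPM in alkali-treated oxalate libraries, against 22.5, 23.6, 25.8, 28.7 and 29.0 CPM in untreated oxalate libraries. Every treated library was above every untreated one, most of them by little and 8 by much. The log2 difference was 0.35 ± 0.12 with an edgeR adjusted p of 0.113, so it did not pass. Alkali-treated controls had 25.1, 26.1, 30.2, 30.7 and 36.4 CPM, and untreated controls had 24.5, 29.6, 32.2, 35.6 and 36.8 CPM. Untreated oxalate 32 and 12 lay below every untreated control and the other three within the control range. The log2 difference was -0.29 ± 0.12 (edgeR adjusted p = 0.0562). That difference was called lower without the 6 libraries with fat cell transcripts (-0.43, edgeR adjusted p = 0.0116), and it was 0.02 (edgeR adjusted p = 0.904) when scaled by total counts. It was also called lower with no filter (0.0331) and without alkali-treated oxalate 8, untreated oxalate 39 or 40, alkali-treated control 1 or untreated control 26 (edgeR adjusted p 0.0150 to 0.0458).

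Ptger1, the gene of the EP1 receptor, which signals through calcium, lies on chromosome 8 from 83666678 to 83672753 (plus strand, ENSMUSG00000019464). The strand setting of the counting is not given in the sources used here, for this or any other member. Counts of a gene that shares bases with another are uncertain for that reason, and those of Ptger1 are treated so here. Overlaps of the other members are not given here, so the same limit may hold for any of them, Ptger4 included. Ptger1 had 14.8, 18.2, 19.3, 20.04 and 24.4 CPM in alkali-treated oxalate libraries, against 11.5, 12.2, 13.5, 14.4 and 16.04 CPM in alkali-treated controls. Those groups met only at alkali-treated oxalate 2, and the log2 change was 0.52 ± 0.18 (edgeR adjusted p = 0.0298), or 0.45 with an adjusted p of 0.105 without the 6 libraries with fat cell transcripts. The call was also lost without alkali-treated oxalate 33, 5 or 8 or alkali-treated control 1, 27 or 37 (edgeR adjusted p 0.0523 to 0.0928). Without alkali the untreated oxalate libraries, at 13.01 to 20.9 CPM, and the untreated controls, at 8.41 to 17.9 CPM, overlapped widely, with a log2 difference of 0.37 ± 0.18 (edgeR adjusted p = 0.101). That difference was called without untreated control 26 (0.53, edgeR adjusted p = 0.0169), without the 6 libraries (0.67, 0.0122) and with total-count scaling (0.67, 0.0136).

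Among receptor transcripts per length, Ptger4 made up 10.7% ± 2.60 in alkali-treated oxalate mice, 17.6% ± 2.96 in untreated oxalate mice, 5.72% ± 1.42 in alkali-treated controls and 6.09% ± 1.14 in untreated controls (SD, n = 5 each). Ptger3 made up 54.8% ± 3.65 in alkali-treated oxalate mice, 49.0% ± 4.30 in untreated oxalate mice, 63.4% ± 4.45 in alkali-treated controls and 66.0% ± 9.32 in untreated controls. The inhibitory receptor thus stayed the most abundant of the 4 in the mean of each group, while Ptger4 took a larger share in every oxalate library than in any control library. These shares were not tested, and they carry the uncertainty of Ptger1 and of any other of the 4 that shares bases with another gene.

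**Figure D2:**
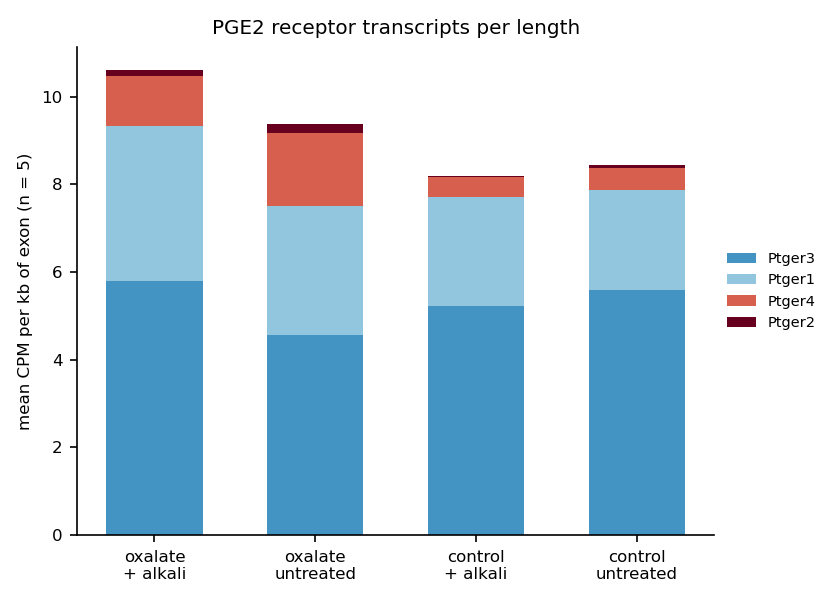
Mean CPM per kb of exon of the 4 prostaglandin E2 receptor genes, stacked, in each group of 5 libraries. Ptger4 makes up 10.7% and 17.6% of receptor transcripts in alkali-treated and untreated oxalate mice, and 5.72% and 6.09% in alkali-treated and untreated controls.

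Oxalate against control on alkali was the second comparison. There 8 of 10 members were called higher and 0 lower (edgeR adjusted p below 0.05), where 23.4% of all genes were called higher and 17.1% lower. These were Ptgs1, Ptges, Ptgds, Ptgis, Hpgd, Ptger1, Ptger2 and Ptger4. Without Ptger2 7 of 9 were called, with a median log2 change of 0.52. All oxalate libraries were above all controls for 4 members, Ptges, Ptgds, Ptger2 and Ptger4, where 10.8% of all genes were, or 3 of 9 without Ptger2. Without the 6 libraries with fat cell transcripts, which leaves 4 oxalate and 3 control libraries, only Ptgds and Ptger4 were called, where 14.5% of all genes were called higher. Over the same groups the fibroblast sum was 343 to 913 CPM in oxalate and 157 to 316 CPM in control libraries (7 of 7 higher), and the macrophage sum was 270 to 864 CPM in oxalate and 119 to 176 CPM in control libraries (8 of 9 higher). The neutrophil sum was 1.58 to 6.71 CPM in oxalate and 0.670 to 1.39 CPM in control libraries, with 1 of the 3 tested higher. Endothelial markers were higher in 6 of 6, with sums of 300 to 397 CPM in oxalate and 245 to 293 CPM in control libraries. Podocyte markers were higher in 5 of 5, with sums of 398 to 622 CPM in oxalate and 319 to 358 CPM in control libraries. Proximal tubule markers were lower in 5 of 8. Their part was not tested.

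Alkali in oxalate mice was the third comparison, asking how transcripts differed between alkali-treated and untreated oxalate mice. Ptgds was the 1 member called, at 0.543-fold in alkali-treated against untreated oxalate mice, where 2.33% of all genes were called lower and 1.76% higher. Ptgs2 at 0.389-fold missed the threshold. The differences of the others ran between -0.68 ± 0.41 for Ptger2 and 0.35 ± 0.12 for Ptger3. Ptgds was the 1 member with every alkali-treated library below every untreated one, where 1.61% of genes were, and Ptger3 the 1 member with every alkali-treated library above, where 1.91% were. The synthase Ptges differed by 0.10 ± 0.16 on the log2 scale (edgeR adjusted p = 0.775) and Ptgs1 by -0.03 ± 0.13 (0.933). The macrophage sum in alkali-treated oxalate mice was 0.410 of that in untreated oxalate mice, with 3 of 9 called lower (Lyz2, Cd14 and Itgam). The fibroblast sum was 0.648 of that in untreated oxalate mice, with 0 of 7 called.

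**Figure D3:**
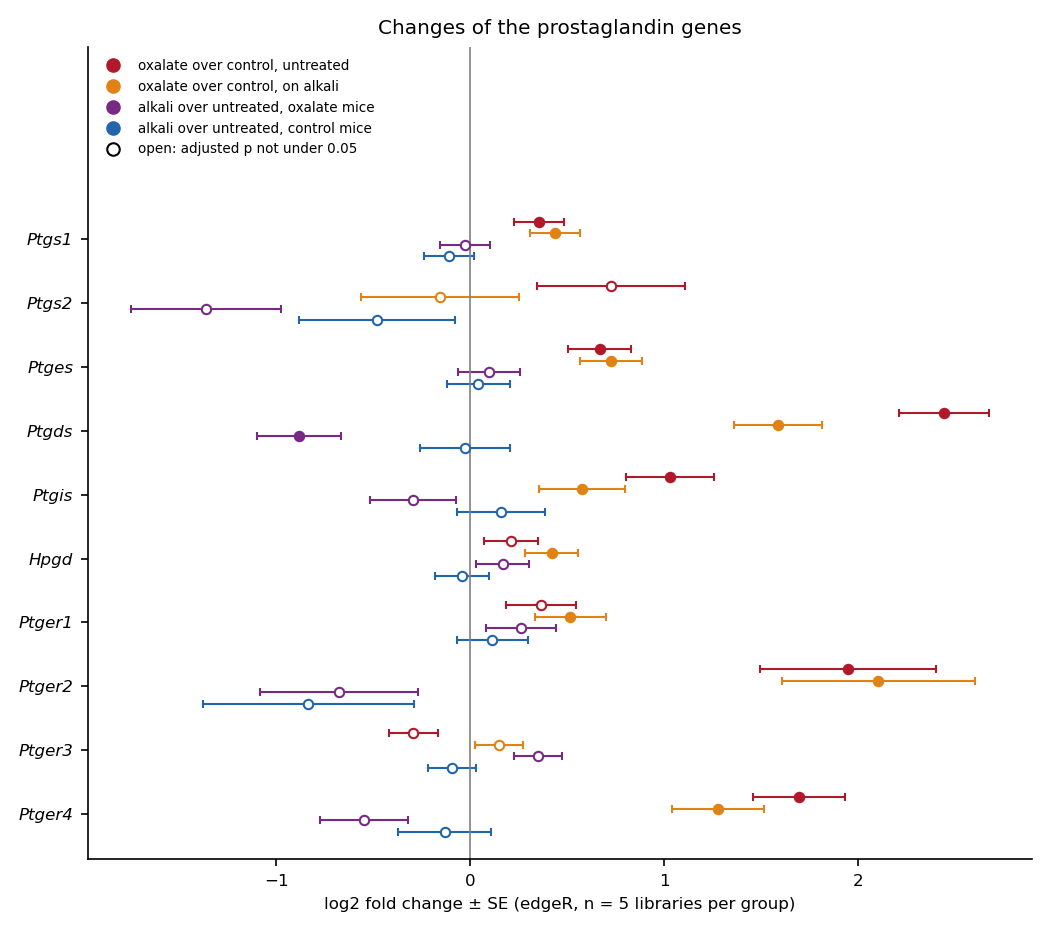
Log2 fold change of each of the 10 genes in oxalate over control mice, untreated and on alkali, and in alkali-treated over untreated mice, with bars of 1 standard error and open points where the adjusted p is not under 0.05. Ptgds and Ptger4 lie to the right in both oxalate comparisons (2.44 and 1.70 without alkali, 1.59 and 1.28 on alkali), and Ptgs2 and Ptgds lie furthest to the left in the alkali comparison within oxalate mice (-1.36 and -0.88).

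Alkali in control mice gave 0 called members and 0 called genes of 15430 with edgeR, where 389 genes had an unadjusted p below 0.05 and DESeq2 called 3. The member differences ran between -0.83 for Ptger2 and 0.16 on the log2 scale. The interaction asks whether the difference between alkali-treated and untreated mice was unlike in oxalate and control mice. It gave 0 called members and 0 called genes with edgeR, with 1429 genes at an unadjusted p below 0.05 and 12 called by DESeq2. Its values ran from -0.88 ± 0.56 for Ptgs2 (edgeR adjusted p = 0.649) to 0.44 ± 0.17 for Ptger3 (edgeR adjusted p = 0.478). A different response to alkali in oxalate and control mice was therefore not shown for any member.

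Within the untreated oxalate group the libraries stood in the same order for Ptgds, for Ptger4, for the fibroblast, macrophage and neutrophil sums and along the first principal component of all genes (64.5% of the variance). From low to high this order was 32, 39, 3, 12 and 40. The fibroblast sums along it were 467, 629, 941, 1208 and 1810 CPM, and the macrophage sums 683, 1126, 1365, 1655 and 2773 CPM. The proximal tubule sums ran the other way, at 13620, 11509, 10797, 9077 and 5118 CPM. The order is therefore not particular to these genes or to either cell type. Ptges followed another order, with 40 lowest and 3 highest. In alkali-treated oxalate mice library 2 was lowest and 33 highest for Ptgds, Ptger4 and the fibroblast and macrophage sums.

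**Figure D4:**
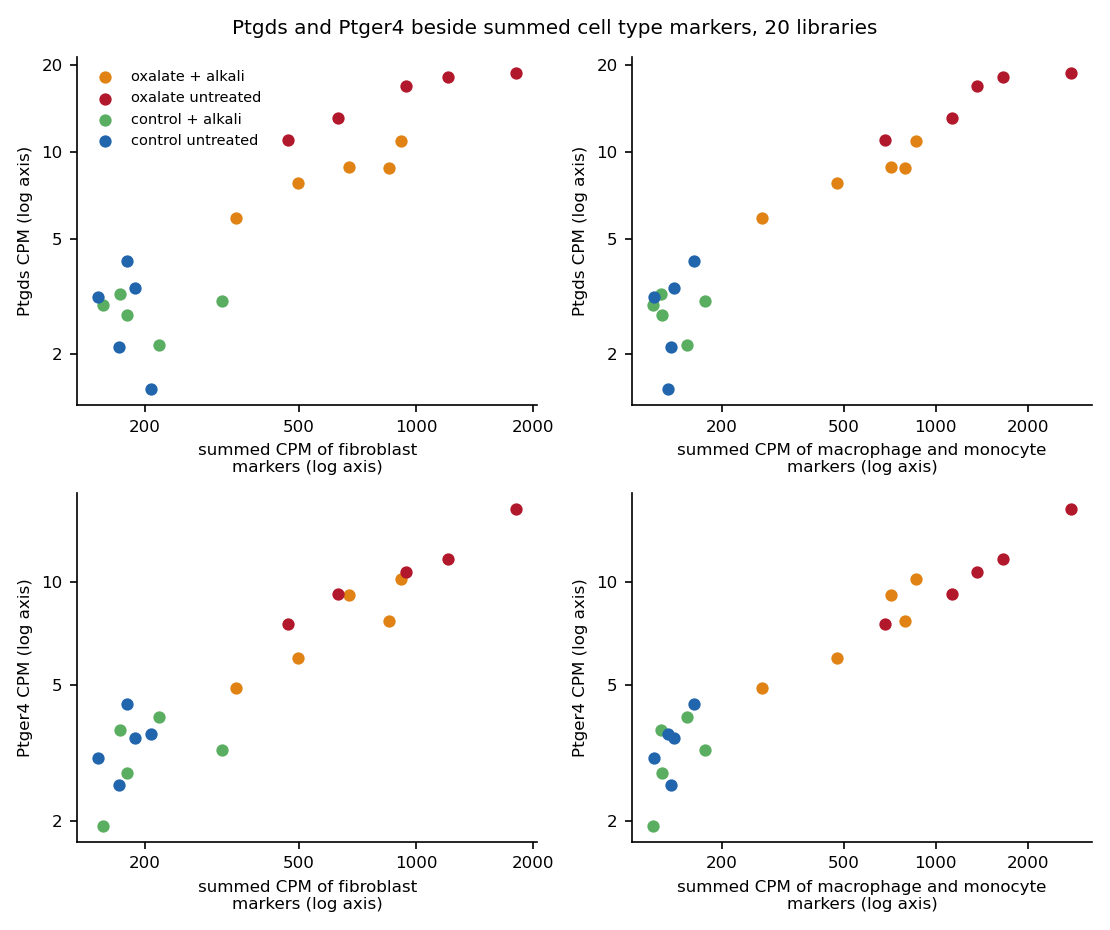
Ptgds (top) and Ptger4 (bottom) in CPM against the summed CPM of fibroblast markers (left) and of macrophage and monocyte markers (right), all on log axes, 1 point per library. Control libraries cluster at the lower left, at fibroblast sums of 152 to 316 CPM, and untreated oxalate libraries climb to 1810 CPM.

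The other genes of the pathway were counted from lists. Of all genes tested, 26.4% were called higher and 23.1% lower in oxalate against control mice without alkali. On alkali these shares were 23.4% and 17.1%, and for alkali within oxalate mice 1.76% and 2.33%. A count of 0 for alkali in lists this short is near those last shares. Of 13 phospholipases that release arachidonic acid 7 were tested, and in untreated oxalate against untreated control mice Pla2g4a (0.97 ± 0.21 on the log2 scale), Pla2g4c (1.46 ± 0.54) and Pla2g2d (4.52 ± 0.63) were higher and Pla2g6 (-0.61 ± 0.14) lower, while Pla2g4c and Pla2g2d passed the filter only through the oxalate libraries. Pla2g4a is the calcium-dependent cytosolic enzyme that supplies most stimulated prostaglandin synthesis. On alkali Pla2g4a (0.75), Pla2g4b (0.64) and Pla2g2d (3.40) were higher, and 0 of 7 were called between alkali-treated and untreated oxalate mice.

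Of 5 other terminal synthases Hpgds, the haematopoietic prostaglandin D synthase of mast cells and macrophages, was higher in untreated oxalate mice by 3.22 ± 0.43 on the log2 scale (edgeR adjusted p = 7.44e-06) and on alkali by 2.32 ± 0.42 (0.000525). Both prostaglandin D synthases were thus higher in oxalate mice. Ptges2, another prostaglandin E synthase, was lower in oxalate mice, with log2 changes of -0.41 without alkali and -0.40 on alkali. Tbxas1, the thromboxane synthase, was higher in oxalate than control mice on alkali (0.63 ± 0.15, edgeR adjusted p = 0.00348). In alkali-treated against untreated oxalate mice, Tbxas1 was higher (0.77 ± 0.15, edgeR adjusted p = 0.00787). Ptges3, the cytosolic prostaglandin E synthase also known as the chaperone p23, was lower there (-0.49 ± 0.11, edgeR adjusted p = 0.0212). Other fits were not examined for these calls. Of 4 mast cell markers only Kit was tested, and Cpa3, Mcpt4 and Tpsb2 were too low. Kit was higher in oxalate mice by 0.59 ± 0.15 without alkali (edgeR adjusted p = 0.00311) and by 0.68 ± 0.15 on alkali (0.00223). With only Kit tested, the list cannot follow mast cells, and their part was not tested.

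Of 6 genes of transport and breakdown, the uptake carrier Slco2a1 (0.49), the efflux pump Abcc4 (0.54) and the reductase Cbr1 (0.39) were higher and the reductases Ptgr2 (-0.66) and Zadh2 (-0.44) lower in untreated oxalate than untreated control mice. On alkali Abcc4 (0.42) was higher and Ptgr1 (-0.35), Ptgr2 (-0.52) and Zadh2 (-0.28) lower. Between alkali-treated and untreated oxalate mice 0 of 6 were called. Of 5 other prostanoid receptors 3 were tested, and the prostacyclin receptor Ptgir was higher by 1.83 ± 0.30 without alkali (edgeR adjusted p = 7.1e-05) and by 1.11 ± 0.30 on alkali (0.00803). The prostaglandin D2 receptors Ptgdr and Ptgdr2 were too low to test. Prostacyclin synthase and its receptor were therefore both called higher in oxalate mice. The Ptgis call on alkali was just inside the threshold and was lost in 13 of 20 fits that left out 1 library. No receptor of prostaglandin D2 could be tested.

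Of 10 leukotriene and lipoxygenase genes, which use the same arachidonic acid, 9 were tested. Without alkali Alox5ap (2.698 ± 0.29), Cysltr1 (2.33 ± 0.35), Ltb4r1 (1.55 ± 0.35) and Ltc4s (0.65 ± 0.25) were higher and Ltb4r2 (-1.11 ± 0.32) lower in oxalate mice, while Alox5, the lipoxygenase itself, differed by 0.42 ± 0.35 (edgeR adjusted p = 0.328). On alkali Alox5ap (1.86), Cysltr1 (1.58), Alox12 (0.75) and Ltc4s (0.70) were higher. Alox12 was higher in alkali-treated than untreated oxalate mice (0.51 ± 0.14, edgeR adjusted p = 0.0447). That call was just inside the threshold, and other fits were not examined for it. Over all genes, alkali in oxalate mice gave 271 higher and 359 lower, but 15 and 14 when only the oxalate groups were fitted.

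**Figure D5:**
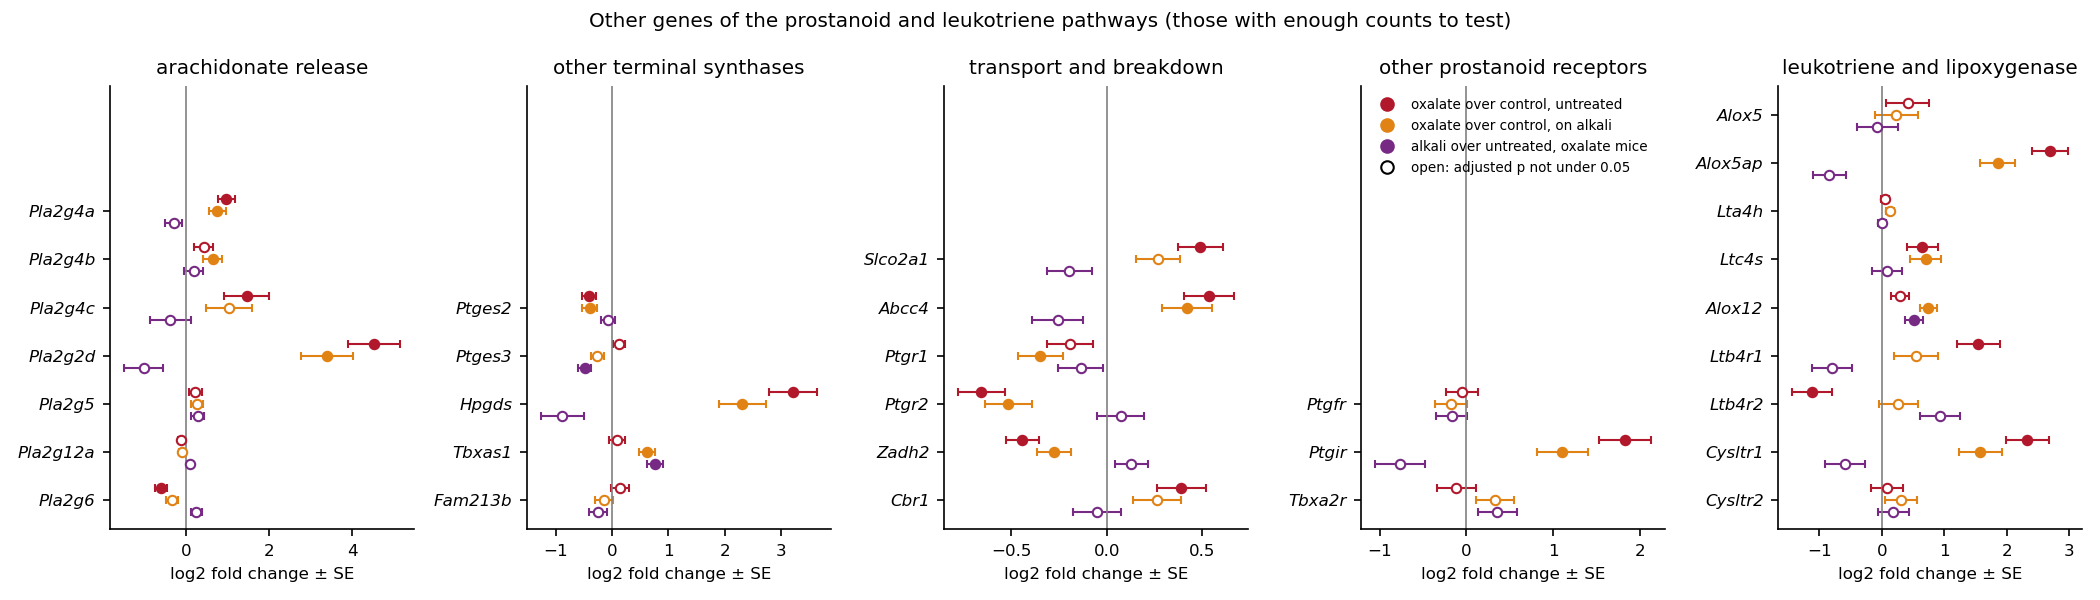
Log2 fold change of the tested genes of the 5 lists around the 10 members in the oxalate and alkali comparisons, with bars of 1 standard error and open points where the adjusted p is not under 0.05. Pla2g2d, Hpgds and Alox5ap lie furthest to the right in untreated oxalate against untreated control mice (4.52, 3.22 and 2.698). Pla2g2d passed the filter on low counts only through the oxalate libraries and so had to differ.

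The genes most like each member were found by the root mean square difference of centred log2 CPM over the 20 libraries. For Ptgds they were Arl4c at 0.30, Dpysl3 at 0.31 and Antxr1 at 0.32, where Ptgds itself varied by 1.11 around its mean. For Ptger4 they were Map3k8, Itpripl2 and Il6ra, each at 0.18, where Ptger4 varied by 0.83. Ptges was matched by Fxyd6 at 0.17, Krt7 at 0.18 and Gata3 at 0.19, against its own variation of 0.42. Ptgs2 had no close match: Crem, Bhlhe40 and Cfap43 lay at 0.38 to 0.39, against 0.68. Ptgis was nearest to Sema7a, Egflam and Cyth3 (0.20 to 0.22), and Ptgs1 to Rnf43, Ap1m2 and Ly6c1 (each 0.12). Hpgd was nearest to Rasgrp3 (0.13), Ptger1 to Rasl11b (0.19), Ptger2 to Pilrb1 (0.39) and Ptger3 to Cyfip2 (0.15). The libraries share their groups, so a close match is a description.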

How the data were processed

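Per the labels' protocols, the 20 libraries were strand-specific and made from poly(A) RNA with a TruSeq kit. The deposited tables hold the authors' whole-number read counts per Ensembl gene, used as deposited. The submitters' processing notes name bcl2fastq 2.19, Trimmomatic, STAR 2.7.1, featureCounts and edgeR. They name the build GRCh38.p5, a human one, while the identifiers are mouse, so the build of the alignment is unresolved. Symbols, coordinates and exon lengths were taken from the GRCm38 annotation, which matched 25664 of 25700 identifiers.

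All 20 libraries were fitted together in edgeR 4.0.16 (R 4.3.3) with TMM scaling, a filter at a minimum count of 10 (15430 genes kept, 10270 removed) and robust quasi-likelihood tests, adjusted by Benjamini-Hochberg over all genes tested. Standard errors were derived from the F statistic. Total counts per library ran between 25547840 and 39550689. The members and gene lists were chosen with earlier results of these data known. All members were named, with the genes of the pathway lists and the 3 genes most like each member. DESeq2 1.42.0, other scalings and filters, the 2 groups alone and each library left out were alternatives.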

Additional observations from a re-analysis of the deposited data

Results flagged for a closer look

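Over 40 sets of 5 libraries, one for each member and group, a library stood apart from the rest of its group in 3. The test compares the gap to the next library with the range of the group, and chance gives about 1 in 20 such sets. Ptger2 was 1.28 CPM in alkali-treated oxalate 33, where the next library had 0.581 CPM. Ptger2 was 2.4 CPM in untreated oxalate 40, where the next had 0.891 CPM; this library was also the highest of its group for Ptger4, Ptgds and the fibroblast and macrophage sums. Ptger3 was 41.5 CPM in alkali-treated oxalate 8, where the next had 32.2 CPM. This library was also the highest of its group for principal cell markers, at 1058 CPM. It was the highest for the podocyte, endothelial, and macula densa and juxtaglomerular sums too, so its place is not particular to principal cell markers.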

How the results depend on the processing

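Members called higher in untreated oxalate mice numbered 6, and 9 under total-count scaling, where 48.6% of all genes were called higher, and 5 to 7 when 1 library was left out. Ptger3 became called lower there with no filter on low counts, and also without the 6 libraries with Adipoq above 1 CPM (1 in each case), and leaving out single libraries gave 0 to 1. On alkali, 2 members were called higher without those 6 libraries, a setting chosen after seeing the data, 9 with total-count scaling, where 36.6% of all genes were called higher, and 5 to 8 when 1 library was left out. With alkali in oxalate mice, 2 members were called lower by DESeq2, 0 when only the oxalate groups were fitted, 2 without the 6 libraries, and 0 to 2 when 1 library was left out. The cause was not tested.

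Some signs turned, of differences that were not called. Total-count scaling gave 0.022 for Ptger3 without alkali, 0.073 for Ptgs2 on alkali and 0.011 for Ptgds with alkali in controls. Without the 6 libraries, alkali in controls gave 0.044 for Ptgs1 and -0.039 for Ptgis, and the interaction gave -0.18 for Ptgs1, -0.14 for Ptges, -0.23 for Ptger1 and -0.51 for Ptger2. Leaving out single libraries gave -0.46 to 0.0049 for Ptgs2 on alkali and -0.13 to 0.067 for Ptgs1 with alkali in oxalate mice. In controls it gave -0.0077 to 0.10 for Ptges, -0.19 to 0.16 for Ptgds and -0.11 to 0.0069 for Hpgd. For the interaction it gave -0.023 to 0.18 for Ptgs1, -0.040 to 0.17 for Ptges, -0.016 to 0.28 for Ptger1 and -0.23 to 0.78 for Ptger2.

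Over all genes, untreated oxalate against untreated control gave 4067 higher and 3563 lower, or 53.3% higher, and total-count scaling made that 85.1%. On alkali the share was 57.8%, and 85.6% with total-count scaling. Alkali in oxalate mice gave 271 higher and 359 lower, but 15 and 14 when only the oxalate groups were fitted, 464 and 700 with DESeq2, 467 and 796 without the 6 libraries, and 93 to 442 higher and 92 to 718 lower when 1 library was left out. The filter at 1 CPM gives no value for members below it. Low counts limit Ptgs2 and Ptger2. No paired analysis was possible because the groups share no replicate numbers.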

Other observations

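The ratio of Ptges to Hpgd transcripts per length sets a prostaglandin E synthase against a breakdown enzyme. It leaves out Ptges2 and Ptges3 and does not measure synthesis or breakdown of prostaglandin E2. This ratio was 1.39 ± 0.50 in alkali-treated oxalate mice, 1.501 ± 0.43 in untreated oxalate mice, 1.11 ± 0.20 in alkali-treated controls and 1.05 ± 0.23 in untreated controls (SD, n = 5 each). The spread within the oxalate groups, 0.774 to 1.89 with alkali and 0.831 to 1.86 without, reached down to the control values. Untreated oxalate 40 had the highest Hpgd and the lowest Ptges of its group.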
